A study of Rattus norvegicus with 24 samples.

Results

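Hmox1, Sod1, Sod2 and Cat encode enzymes that remove oxidants or heme, and their transcript levels were followed in INS1, a rat insulinoma line that stands in for pancreatic beta cells. The 4 genes were taken by their rat Ensembl identifiers, ENSRNOG00000014117 for Hmox1, ENSRNOG00000002115 for Sod1, ENSRNOG00000019048 for Sod2 and ENSRNOG00000008364 for Cat, out of 26689 identifiers in the count table, and all 4 were among the 13760 that passed the filter on low counts. The table holds identifiers only, and the gene table at hand carries 0 Ensembl identifiers, so the names rest on the list that defined the genes and were not checked against a file. All 24 libraries came from INS1 cells with a doxycycline-inducible mouse transgene for IRE1α, a sensor of endoplasmic reticulum stress that has a kinase and an RNase domain. Uninduced cells had drug vehicle and no doxycycline, and the 3 induced groups had doxycycline with vehicle, with PAIR1 or with KIRA9, code-named small molecules that act on the IRE1α kinase, PAIR1 being of the class the series title calls partial antagonists. Each of these 4 treatments was sampled at 4 h and at 24 h with 3 libraries, giving 8 groups. No cells had a compound without doxycycline, and none had doxycycline without the transgene, so effects of the transgene and of doxycycline itself cannot be told apart. Compound doses, and whether the line is a single clone, are not given in the sources used here.

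Superoxide dismutases turn the superoxide radical into hydrogen peroxide, the copper-zinc enzyme encoded by Sod1 mainly in the cytosol and the manganese enzyme encoded by Sod2 in mitochondria. Catalase, encoded by Cat, breaks hydrogen peroxide down to water and oxygen, mostly in peroxisomes. Heme oxygenase, encoded by Hmox1, opens heme to biliverdin, carbon monoxide and iron, and is a widely used marker of oxidant stress because the transcription factor NRF2 drives it strongly. Beta cells are known for low catalase activity compared with liver.

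Library totals ran from 12.6 to 23.8 M counts, and the 4 genes had between 311 (Hmox1) and 9322 (Sod1) counts in every library, far above the 3 counts that a count of 0 allows. Levels are given as CPM, counts per 1 M counts after scaling between libraries by TMM (trimmed mean of M-values), and are compared only within a gene, since no transcript lengths were used. A set of 6 libraries stood apart across treatments: replicate 2 of the uninduced cells at both times, replicate 3 of the induced vehicle cells at 4 h, replicates 1 and 2 of the induced vehicle cells at 24 h, and replicate 1 of the PAIR1 cells at 24 h. In these, 41 identifiers that were higher than in each of the other 18 libraries held 0.667 to 0.744% of counts, against 0.0705 to 0.0853%. The 41 were picked for being higher in the 6, so the direction of this gap was set by the choice and its size may be raised by it. None of the 4 genes belongs to the 41, and results that change without these libraries are given both ways. Leaving them out leaves induced vehicle replicate 3 alone at 24 h, so fits without them take its spread from the other groups. For the 6 induced vehicle libraries the time characteristic contradicts the title, description and column name, and the title was used. The cell line and the level of the transgene were not checked against marker genes, because the identifiers are not paired with names. In these bulk samples, fewer cells of a kind and less RNA per cell cannot be told apart.

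Within a time point the genes moved little: among 48 tests, 4 genes in 12 comparisons, 10 were called at an adjusted p below 0.05, and the largest change was 0.30 on the log2 scale (Cat, induction at 24 h). At 4 h, induction called 0 of the 4 genes, where 0.298% of all identifiers were called. PAIR1 against induced vehicle called 0 of 4 (background 3.20%), and KIRA9 against induced vehicle called 1 of 4, Cat, which was higher (background 11.7%, with 6.01% called higher). Against uninduced cells at 4 h PAIR1 called 0 of 4 (background 2.55%) and KIRA9 called 1 of 4, Cat, higher (background 10.9%, with 5.44% higher). PAIR1 against KIRA9 called 0 of 4 at 4 h (background 2.06%). At an unadjusted p below 0.05, edgeR's test gave 1 gene for induction (Sod2), 1 for PAIR1 against induced vehicle (Cat) and 1 for PAIR1 against uninduced cells (Sod2), 0 for PAIR1 against KIRA9, and DESeq2 called 0 in each of these.

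At 24 h induction called 3 of the 4 genes: Sod1 and Cat were higher and Sod2 was lower. The background there was 61.8% called, 29.8% higher and 32.0% lower, so a count of 3 in 4 does not set these genes apart. Their changes were also smaller than that of a typical identifier, with absolute log2 changes of 0.11 (Hmox1), 0.21 (Sod1), 0.069 (Sod2) and 0.30 (Cat) beside a median of 0.35 over all 13760. PAIR1 against induced vehicle called 1 of 4, Sod2, higher (background 54.9%, with 30.0% higher), and KIRA9 against induced vehicle called 0 of 4 (background 62.9%), with 0 at an unadjusted p below 0.05 and 0 by DESeq2. The median absolute log2 change over all identifiers was 0.29 with PAIR1 and 0.35 with KIRA9, and the largest of the 4 genes was 0.076 with PAIR1 (Sod2) and 0.095 with KIRA9 (Cat). Against uninduced cells at 24 h, Sod1 and Cat were called higher both with PAIR1 (2 of 4, background 28.0%, with 13.7% higher) and with KIRA9 (2 of 4, background 23.4%, with 12.6% higher). PAIR1 against KIRA9 called 0 of 4 (background 16.3%), with 0 at an unadjusted p below 0.05 and 0 by DESeq2. Comparisons within a time share the uninduced, the induced vehicle or the compound libraries.

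The scaling sets part of the sizes at 24 h. The induced vehicle libraries there have TMM factors of 1.08 to 1.09, and library totals without these factors shift the median identifier by 0.135 for induction, by -0.11 for PAIR1 and by -0.142 for KIRA9 against induced vehicle. Among all identifiers called, the share called higher was 48.2% with TMM and 61.3% with library totals for induction, 54.7 and 40.8% for PAIR1 and 51.4 and 37.8% for KIRA9 against induced vehicle, and 36.8 and 53.6% for PAIR1 against KIRA9. With library totals, induction called Hmox1 (0.24, adjusted p = 0.017) and all 4 genes higher, and KIRA9 called all 4 lower than induced vehicle, including Hmox1 (-0.21, adjusted p = 0.039). The contrasts of the compounds with uninduced cells shifted less, by 0.0249 for PAIR1 and -0.00705 for KIRA9. There the share called higher was 48.9% with TMM and 57.1% with library totals for PAIR1, and 53.9 and 51.5% for KIRA9.

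Between 4 h and 24 h all 4 genes fell in uninduced cells, where 27.2% of identifiers were called and 13.5% lower. In induced vehicle cells 2 of 4 fell, Hmox1 and Sod2 (background 62.4%, with 32.2% lower), as they did with PAIR1 (2 of 4, background 34.3%, with 17.4% lower), and with KIRA9 3 of 4 fell, with Cat added (background 29.6%, with 13.9% lower). None rose by the test at either scaling except Sod1 (0.14) and Cat (0.15) in induced vehicle cells and Sod1 with PAIR1 (0.088), which were called higher with library totals.

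**Figure D1:**
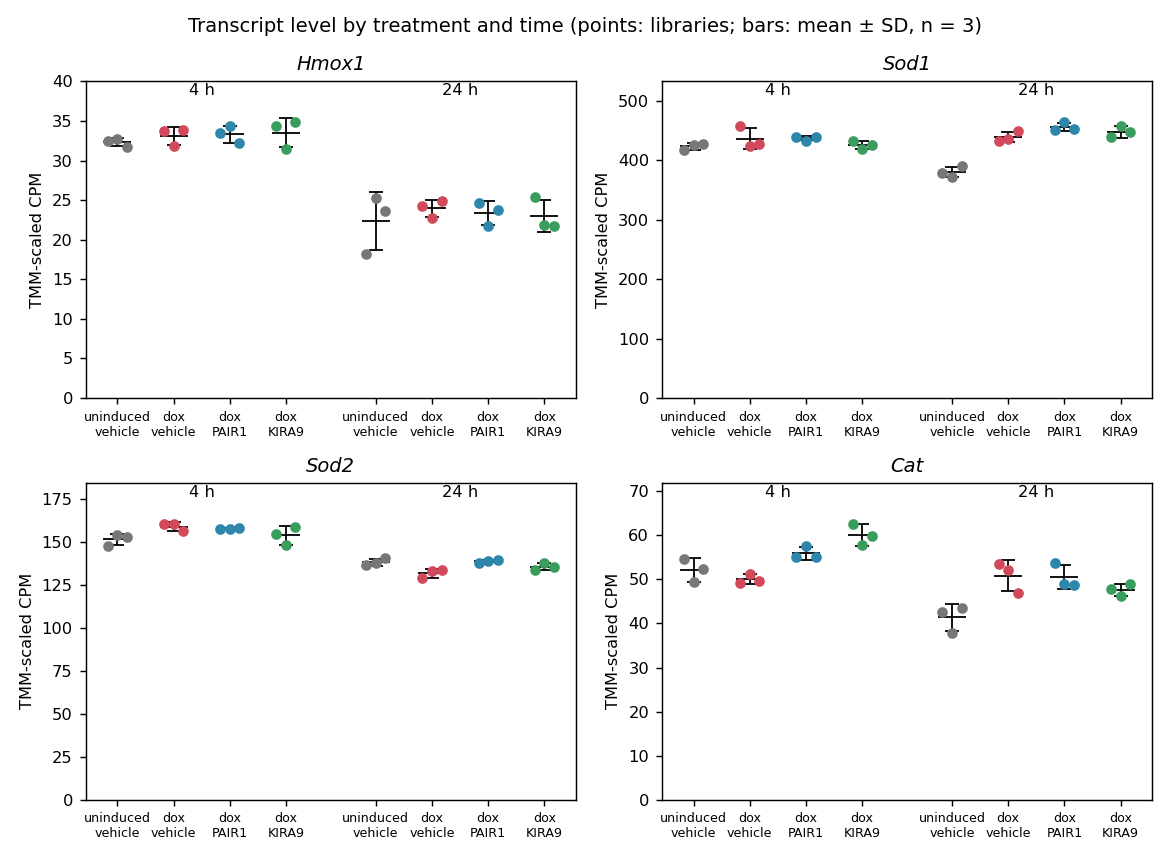
TMM-scaled CPM of Hmox1, Sod1, Sod2 and Cat in each library (points), with the mean and SD of 3 libraries (bars), for 4 treatments at 4 h and 24 h. Every axis starts at 0; Hmox1 lies between 31.4 and 34.8 CPM in the 12 libraries at 4 h and between 18.2 and 25.3 in the 12 at 24 h, while Sod1 at 24 h is lowest in the uninduced cells.

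Hmox1 was not called between treatments at either time on the TMM scale, but it was lower at 24 h than at 4 h under every treatment. At 4 h its level was 32.5, 32.7 and 31.8 CPM in uninduced cells and 33.8, 31.8 and 33.8 CPM in induced vehicle cells. With PAIR1 the libraries stood at 33.5, 34.3 and 32.2 CPM and with KIRA9 at 34.4, 31.4 and 34.8 CPM. The lowest and the highest of these libraries were both KIRA9 libraries, and the 4 groups overlapped. The log2 change with induction was 0.036 ± 0.085 (SE, n = 3 against 3; adjusted p = 0.99).

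At 24 h Hmox1 was at 18.2, 25.3 and 23.7 CPM in uninduced and 24.3, 22.8 and 24.8 CPM in induced vehicle cells. The compound libraries were at 24.6, 21.8 and 23.7 CPM with PAIR1 and 25.3, 21.8 and 21.7 CPM with KIRA9. Uninduced replicate 1 was the lowest of these 12 libraries, and the others lay between 21.7 and 25.3 CPM. The induction change of 0.11 ± 0.087 (SE, log2) was not called (adjusted p = 0.31), and its 95% interval ran from -0.075 to 0.29, or from 0.949-fold to 1.22-fold. It was -0.031 without uninduced replicate 1, not called. Without the 6 libraries that stood apart, which leaves 1 induced vehicle library, it was 0.27. The intervals for the compounds against induced vehicle reached from -0.22 to 0.15 with PAIR1 and from -0.25 to 0.12 with KIRA9.

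In the order of group means, the 24 h groups ran from 22.4 ± 3.69 CPM (SD, n = 3, uninduced) to 24.0 ± 1.08 CPM (induced vehicle) and the 4 h groups from 32.3 ± 0.518 CPM (uninduced) to 33.5 ± 1.85 CPM (KIRA9). Within each time neighbours in this order differed by less than the larger of their SDs, and the gap lay between the times.

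From 4 h to 24 h Hmox1 fell by 31.1% in uninduced cells, fell by 27.7% in induced vehicle cells, fell by 29.9% with PAIR1 and fell by 31.6% with KIRA9. The 3 libraries at 24 h lay below the 3 at 4 h in each treatment, and how many of all identifiers do the same was not counted. In the same order, the log2 changes were -0.54 ± 0.086, -0.47 ± 0.086, -0.51 ± 0.087 and -0.55 ± 0.087 (SE), with adjusted p of 7.0e-05, 5.6e-05, 6.7e-05 and 4.3e-05. Whether the fall differed between treatments was tested directly: the induction effect changed by 0.070 ± 0.12 between the times (adjusted p = 0.67), and the 95% interval of that change, -0.18 to 0.32, includes changes in either direction. Leaving out any 1 library gave log2 changes from -0.63 to -0.40 in uninduced and from -0.50 to -0.43 in induced vehicle cells, all called. Without the 6 libraries that stood apart the change was -0.63 in uninduced cells (adjusted p = 0.00050). In induced vehicle cells it was -0.39, with 1 library left at 24 h, so only the size is given. If the 6 induced vehicle libraries were given the times of the conflicting characteristic, Hmox1 would be 0.47 higher at 24 h than at 4 h in that treatment, with an induction change of -0.43 at 4 h and 0.57 at 24 h, each called. Under that label 62.4%, 63.2% and 27.5% of all identifiers were called in these 3 comparisons.

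Sod1 differed between treatments at 24 h, where all 9 libraries that had doxycycline lay above all 3 that had none. The share of all identifiers that separate in this way was not counted, and 61.8% were called for induction at 24 h. Uninduced cells held 379, 372 and 390 CPM at 24 h. Induced vehicle cells held 433, 436 and 449 CPM, PAIR1 cells 451, 464 and 453 CPM and KIRA9 cells 439, 458 and 447 CPM. The highest uninduced library (390 CPM) lay below the lowest of the others (433 CPM). On the TMM scale the PAIR1 libraries lay above the induced vehicle ones, and the KIRA9 libraries overlapped both. With library totals the PAIR1 libraries (453, 465 and 454 CPM) lay below the induced vehicle ones (470, 471 and 485 CPM), so that order depends on the scaling.

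Induction was followed by a Sod1 level 15.5% higher at 24 h (log2 change 0.21 ± 0.029 SE, adjusted p = 1.4e-06). PAIR1 cells were 19.9% above uninduced cells (0.26 ± 0.029, adjusted p = 1.8e-07) and KIRA9 cells 17.8% above (0.24 ± 0.029, adjusted p = 1.4e-06). Against induced vehicle cells neither compound changed Sod1 by the test: the log2 difference was 0.054 with PAIR1 (95% interval -0.0056 to 0.11, adjusted p = 0.12) and 0.029 with KIRA9 (-0.031 to 0.089, adjusted p = 0.40). On the TMM scale neither interval reaches a decrease as large as the induction difference at 24 h. PAIR1 and KIRA9 differed by 0.026 (-0.034 to 0.086, adjusted p = 0.62). The 3 differences from uninduced cells were called under each of the alternatives run that left more than 1 library per compared group. Without the 6 libraries, which leaves 1 induced vehicle library at 24 h, the induction difference was 0.24. Induction gave 0.19 to 0.22 with any 1 library left out and 0.34 with library totals, where KIRA9 then stood below induced vehicle cells by a log2 difference of -0.11 (adjusted p = 0.00063).

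At 4 h the Sod1 groups lay close together. Uninduced cells had 417, 426 and 427 CPM and induced vehicle cells 458, 424 and 428 CPM, and induced vehicle replicate 1 was the highest of the 12. PAIR1 cells had 439, 433 and 439 CPM and KIRA9 cells 433, 418 and 426 CPM. None of the 6 comparisons at 4 h called Sod1. From 4 h to 24 h Sod1 fell by 10.2% in uninduced cells (log2 change -0.15 ± 0.029, adjusted p = 0.00035). In the doxycycline groups the log2 change was 0.0089 with vehicle, 0.062 with PAIR1 and 0.073 with KIRA9, and none was called (adjusted p = 0.81, 0.10 and 0.060), although the KIRA9 change was called by DESeq2 (0.076, adjusted p = 0.045) and without KIRA9 replicate 1 at 24 h (0.088, adjusted p = 0.048). The change over time differed from that in uninduced cells by 0.16 ± 0.041 with vehicle (adjusted p = 0.0018; this comparison called 3 of 4 genes, with a background of 50.3%, 22.5% higher and 27.8% lower), by 0.22 ± 0.041 with PAIR1 (adjusted p = 0.00044, background 16.1%, 7.47% higher) and by 0.23 ± 0.041 with KIRA9 (adjusted p = 0.00046, background 10.9%, 6.47% higher). With library totals the first of these was 0.30. The last 2 tests were added after the levels had been seen.

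The order of the Sod1 group means set uninduced cells at 24 h apart, at 380 ± 9.0 CPM (SD, n = 3). Uninduced cells at 4 h followed with 423 ± 6.0 CPM, then KIRA9 (426 ± 7.25), induced vehicle (437 ± 18.2) and PAIR1 (437 ± 3.23) at 4 h. Induced vehicle (439 ± 8.47), KIRA9 (448 ± 9.84) and PAIR1 (456 ± 6.71) at 24 h came last. After the lowest group, each step in this order was smaller than the larger SD of the neighbours. The order is that of the TMM scale, and with library totals PAIR1 at 24 h lay below induced vehicle at 24 h.

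**Figure D2:**
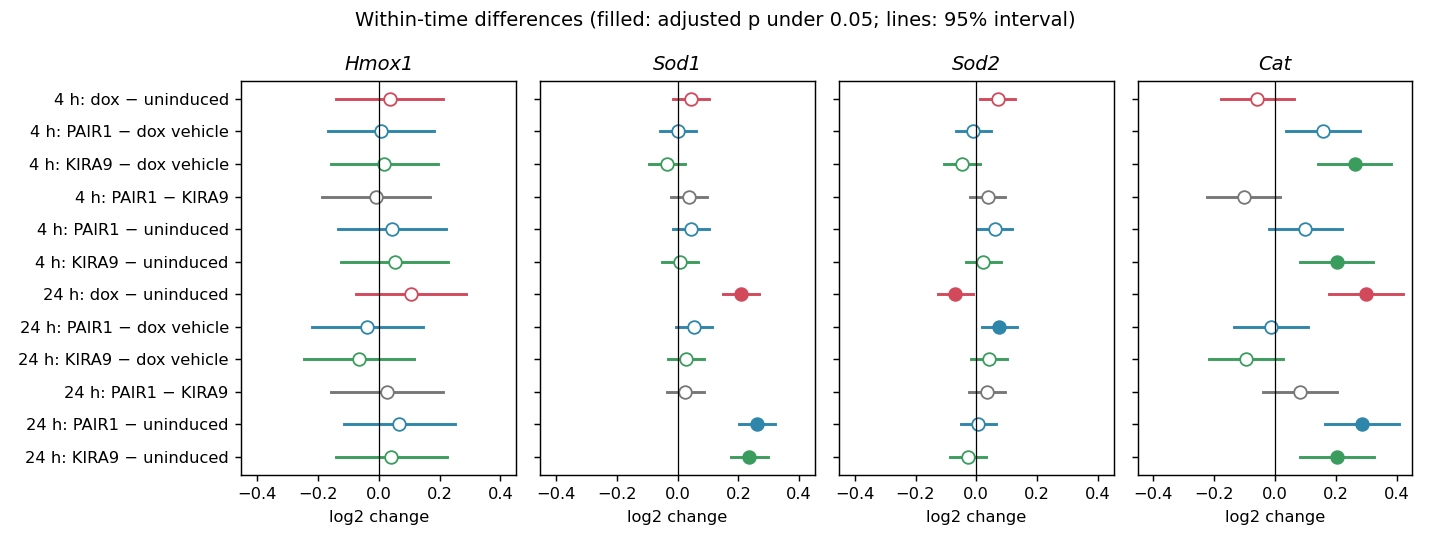
Log2 differences between treatments within a time point for each gene, with 95% intervals (lines), filled where the adjusted p is below 0.05. Hmox1 has no filled point in 12 comparisons, and Sod1 has filled points only for the 3 comparisons of doxycycline groups with uninduced cells at 24 h.

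Cat, like Sod1, was higher in all doxycycline groups than in uninduced cells at 24 h, and it was also higher with KIRA9 at 4 h. At 4 h Cat was at 54.6, 49.4 and 52.4 CPM in uninduced and 49.3, 51.3 and 49.7 CPM in induced vehicle cells. With PAIR1 it was at 55.0, 57.7 and 55.1 CPM and with KIRA9 at 62.6, 57.7 and 59.9 CPM. On the TMM scale every library of either compound lay above every vehicle library, and the lowest KIRA9 and the highest PAIR1 library were both at 57.7 CPM. For PAIR1 that gap was narrow, 55.0 against 54.6 CPM. The share of all identifiers that separate in this way at 4 h was not counted. With library totals uninduced replicate 1 (54.8 CPM) lay above PAIR1 replicates 1 and 3 (54.1 and 54.2 CPM). KIRA9 cells were 19.9% above induced vehicle cells (log2 change 0.26 ± 0.058 SE, adjusted p = 0.0039), and leaving out any 1 library gave 0.23 to 0.29, all called. For PAIR1 the difference from induced vehicle was 0.16 (95% interval 0.038 to 0.28) and was not called (adjusted p = 0.19). From uninduced cells it was 0.10 (-0.021 to 0.22), also not called (adjusted p = 0.49). The direct difference, PAIR1 minus KIRA9, was -0.10 (-0.22 to 0.017) and not called (adjusted p = 0.51), so the compounds were shown neither to differ nor to act alike on Cat at 4 h. Against uninduced cells the KIRA9 level was 0.20 higher (adjusted p = 0.026). That call ended without KIRA9 replicate 1 (0.17) or 3 (0.21), without uninduced replicate 2 (0.17) or 3 (0.21), with adjusted p from 0.063 to 0.13, and without the 6 libraries that stood apart (0.16, adjusted p = 0.073).

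At 24 h Cat was at 42.7, 37.9 and 43.5 CPM in uninduced and 53.6, 52.0 and 47.0 CPM in induced vehicle cells. PAIR1 cells had 53.6, 49.0 and 48.8 CPM and KIRA9 cells 47.8, 46.2 and 49.0 CPM. As for Sod1, all 9 doxycycline libraries lay above the 3 uninduced ones, of which replicate 2 was the lowest. How many of all identifiers do the same was not counted. Cat was 23.0% higher with induction (log2 change 0.30 ± 0.058 SE, adjusted p = 0.00012), 21.9% higher with PAIR1 (0.29 ± 0.059, adjusted p = 0.00063) and 15.1% higher with KIRA9 (0.20 ± 0.059, adjusted p = 0.014) than in uninduced cells. Neither compound was called against induced vehicle, with log2 differences of -0.013 (95% interval -0.13 to 0.11) for PAIR1 and -0.095 (-0.22 to 0.026) for KIRA9. PAIR1 minus KIRA9 was 0.082 (-0.040 to 0.20, adjusted p = 0.39).

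Some of these Cat calls rested on few libraries. Without the 6 that stood apart, which leaves induced vehicle replicate 3 alone in its group and assumes that it varies like the others, the induction change was 0.14 and not called (adjusted p = 0.12), the KIRA9 difference from uninduced cells was 0.15 (adjusted p = 0.057) and the PAIR1 difference was 0.19 (adjusted p = 0.027). The KIRA9 call against uninduced cells also ended without KIRA9 replicate 3 (0.18, adjusted p = 0.064), without uninduced replicate 2 (0.14, adjusted p = 0.098) and in a fit restricted to the 2 groups compared (0.20, adjusted p = 0.065). KIRA9 was called below induced vehicle without induced vehicle replicate 3 (-0.15, adjusted p = 0.042) and with library totals (-0.24, adjusted p = 0.0015).

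Over time Cat fell by 20.6% in uninduced cells (log2 change -0.33 ± 0.058, adjusted p = 0.00019) and by 20.7% with KIRA9 (-0.33 ± 0.058, adjusted p = 0.00014). With induced vehicle the change was 0.023 (adjusted p = 0.75) and with PAIR1 -0.15 (adjusted p = 0.054). The PAIR1 change was called without PAIR1 replicate 1 at 24 h (-0.19, adjusted p = 0.024), with a replicate block (-0.15, adjusted p = 0.045), in a fit of these 2 groups alone (-0.15, adjusted p = 0.044) and without the 6 libraries (-0.19, adjusted p = 0.010). The KIRA9 effect on Cat, measured against induced vehicle, went from 0.26 at 4 h to -0.095 at 24 h (log2 difference of the differences -0.36 ± 0.083, adjusted p = 0.00095; 1 of 4 genes called, background 49.7%, 22.4% lower). For PAIR1 the matching value was -0.17 and was not called (adjusted p = 0.10; 0 of 4 genes, background 41.9%), and PAIR1 minus KIRA9 changed by 0.19 (adjusted p = 0.21; 0 of 4 genes, background 8.61%). Each of these last 2 comparisons had 1 gene at an unadjusted p below 0.05, Sod2 and Cat, and 0 by DESeq2. The PAIR1 value was called without PAIR1 replicate 1 at 24 h (-0.21, adjusted p = 0.049), without induced vehicle replicate 3 at 24 h (-0.22, adjusted p = 0.035) and with library totals (-0.28, adjusted p = 0.010). The induction effect on Cat was 0.36 ± 0.083 higher at 24 h (adjusted p = 0.00094). Without the 6 libraries, which leaves 1 induced vehicle library at 24 h, it was 0.23. The induction effect and the KIRA9 effect share the induced vehicle libraries. Measured against uninduced cells, the KIRA9 difference in Cat was 0.20 at 4 h and 0.20 at 24 h. Its change of -0.00015 between the times was not called, in a comparison added after values had been seen.

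Across the 8 groups the Cat means ran from 41.4 ± 3.02 CPM (SD, n = 3) in uninduced cells at 24 h to 60.1 ± 2.42 CPM with KIRA9 at 4 h. KIRA9 at 24 h was second lowest (47.6 ± 1.42), and PAIR1 at 4 h second highest (55.9 ± 1.53). The remaining groups lay between 50.1 ± 1.07 (induced vehicle, 4 h) and 52.1 ± 2.62 CPM (uninduced, 4 h) and did not differ beyond their spread.

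**Figure D3:**
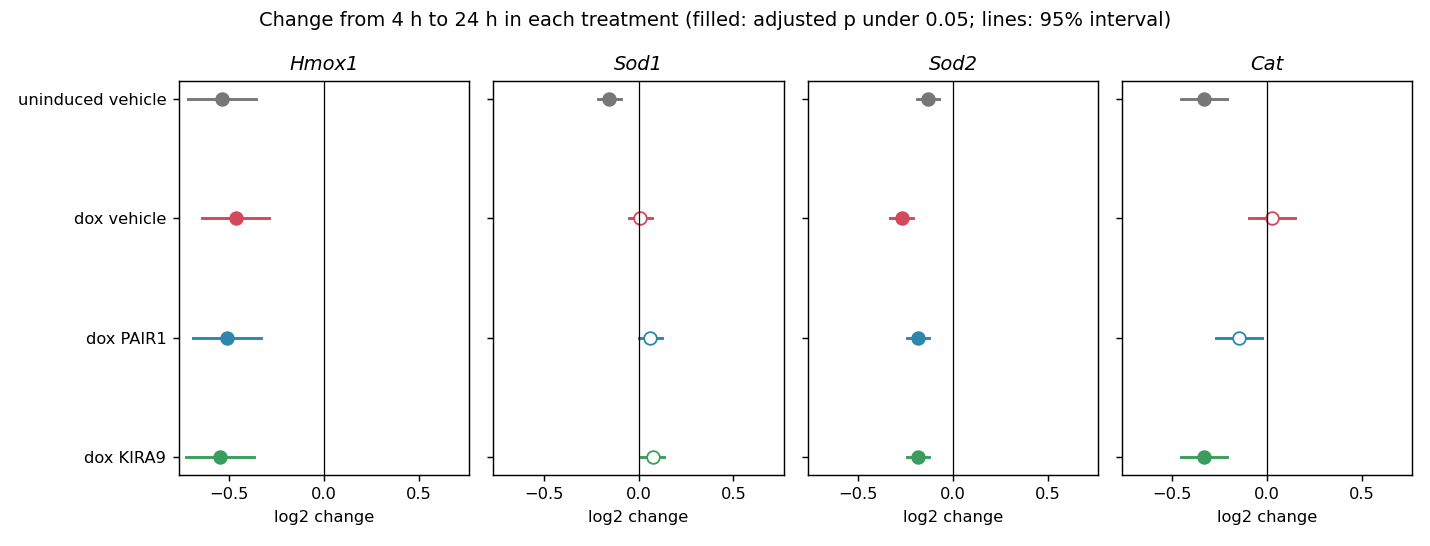
Log2 change from 4 h to 24 h in each treatment for the 4 genes, with 95% intervals (lines), filled where the adjusted p is below 0.05. Hmox1 and Sod2 fall under all 4 treatments, Sod1 is called in uninduced cells and not in the other 3, and Cat falls in uninduced and KIRA9 cells.

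Because Sod1 and Cat stood together above uninduced cells at 24 h, their promoters are shown, from 250 bases before to 50 after the gene start, as given by RefSeq on build GRCr8. Of the 4 genes, Sod1, Sod2 and Cat have an entry in the promoter table, matched by symbol. Capitals mark 5 short motifs looked for on both strands. The first 2 are the antioxidant element core bound by NRF2 (TGANNNNGC) and the core of cAMP and unfolded protein response elements (TGACGT). The others are the TATA box (TATAAA), the CCAAT box (CCAAT) and the GC box (GGGCGG). The first 2 can overlap each other, but no matches overlap in the promoters shown. Sod1 lies on the plus strand at chr11:42942573-42942872 and Cat on the minus strand at chr3:110329477-110329776, both printed 5′ to 3′ along the gene.
Sod1: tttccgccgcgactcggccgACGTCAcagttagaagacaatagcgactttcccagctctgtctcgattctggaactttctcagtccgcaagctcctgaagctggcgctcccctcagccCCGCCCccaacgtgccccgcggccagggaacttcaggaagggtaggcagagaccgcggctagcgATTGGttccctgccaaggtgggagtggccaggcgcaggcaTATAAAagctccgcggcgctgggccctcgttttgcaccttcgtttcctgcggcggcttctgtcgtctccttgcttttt
Cat: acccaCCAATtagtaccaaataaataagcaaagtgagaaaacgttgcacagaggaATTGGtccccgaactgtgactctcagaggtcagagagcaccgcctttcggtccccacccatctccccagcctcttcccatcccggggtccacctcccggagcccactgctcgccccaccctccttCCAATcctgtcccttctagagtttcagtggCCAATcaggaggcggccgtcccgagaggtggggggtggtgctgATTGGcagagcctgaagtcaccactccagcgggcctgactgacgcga

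The Sod1 window held 1 match to the TGACGT core 230 bases before the gene start. It also held 1 GC box at 132, 1 CCAAT box at 68 and 1 TATA box at 28 bases before the start. It had no match to the antioxidant element core. The Cat window held 5 CCAAT boxes and none of the other 4 motifs. Among 33469 promoters of this length in the table, the antioxidant element core was in 40.5% and the TGACGT core in 7.94%. The TATA box was in 14.2%, the CCAAT box in 37.5% and the GC box in 33.1%. At least 5 CCAAT boxes were in 0.218%, a cut-off taken from the count in the Cat window itself. The Sod2 window held 1 antioxidant element core and 2 GC boxes. These matches describe the letters in the windows and factor binding was not measured. The 2 printed windows share the CCAAT box and no other of the 5 motifs.

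Sod2 changed mainly with time and by little between treatments. At 4 h it was at 148, 154 and 152 CPM in uninduced and 160.2, 160.1 and 156.0 CPM in induced vehicle cells. PAIR1 cells had 157.6, 157.6 and 158.0 CPM and KIRA9 cells 155, 148 and 159 CPM. Induced vehicle libraries all lay above uninduced ones, with a log2 change of 0.070 ± 0.028 (SE) that was not called (adjusted p = 0.67).

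At 24 h Sod2 was at 136.4, 137.5 and 140.2 CPM in uninduced and 128.5, 132.7 and 133.6 CPM in induced vehicle cells. PAIR1 cells had 137.8, 138.9 and 139.4 CPM and KIRA9 cells 133.5, 137.6 and 135.0 CPM. The induced vehicle libraries lay below the uninduced and the PAIR1 libraries without overlap, and the share of all identifiers that do so was not counted. Sod2 was called lower with induction (log2 change -0.069 ± 0.028 SE, adjusted p = 0.038) and 0.076 ± 0.028 higher with PAIR1 than with induced vehicle (adjusted p = 0.027), while KIRA9 stood 0.041 above induced vehicle and was not called (adjusted p = 0.21). PAIR1 minus KIRA9 was 0.035 (95% interval -0.024 to 0.094, adjusted p = 0.46), and neither compound was called against uninduced cells (0.0071 and -0.028).

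Both small Sod2 calls depended on the method. With library totals in place of TMM the induction change turned to 0.066 (adjusted p = 0.029) and the PAIR1 difference to -0.034 (adjusted p = 0.29), so the direction of Sod2 at 24 h depends on the scaling. DESeq2 gave adjusted p of 0.090 and 0.073, fits of only the compared groups 0.24 and 0.12, and fits without the 6 libraries 0.55 and 0.43. Leaving out induced vehicle replicate 1 ended both calls (-0.060 and 0.060), induced vehicle replicate 2 or uninduced replicate 3 ended the first (-0.076 and -0.062), and PAIR1 replicate 3 ended the second (0.074).

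From 4 h to 24 h Sod2 fell by 8.73% in uninduced cells (log2 change -0.13 ± 0.028, adjusted p = 0.0013), fell by 17.1% with induced vehicle (-0.27 ± 0.028, adjusted p = 1.7e-08), and fell also with PAIR1 (-0.19 ± 0.028, adjusted p = 1.8e-05) and with KIRA9 (-0.18 ± 0.028, adjusted p = 3.3e-05). Group means ran from 132 ± 2.69 CPM (SD, n = 3, induced vehicle) to 139 ± 0.828 CPM (PAIR1) at 24 h and from 151 ± 3.23 CPM (uninduced) to 159 ± 2.36 CPM (induced vehicle) at 4 h. In each treatment the libraries of the times did not overlap, and the share of all identifiers that separate likewise was not counted. Without the 6 libraries the falls in uninduced, PAIR1 and KIRA9 cells were also called. In induced vehicle cells, with 1 library left at 24 h, the change was then -0.25. The fall was larger with induced vehicle than in uninduced cells (log2 difference -0.14 ± 0.040, adjusted p = 0.0055), a difference of 0.000676 with library totals (adjusted p = 0.99) and -0.125 without the 6 libraries (adjusted p = 0.11). The change over time in induced vehicle cells was -0.14 with library totals, also called, and with the conflicting time label it was 0.27.

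**Figure D4:**
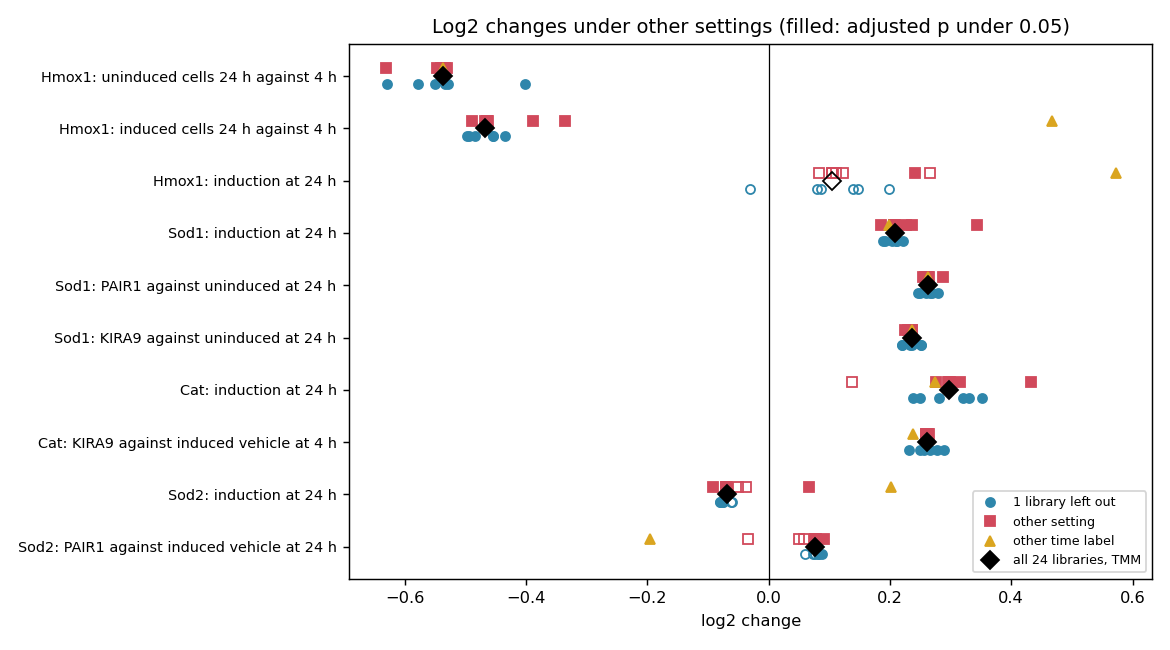
Log2 changes of 10 selected results with all 24 libraries and TMM scaling (diamonds), with 1 library left out (circles), under other settings (squares) and with the other time label (triangles), filled where the adjusted p is below 0.05. The 3 Sod1 differences from uninduced cells at 24 h keep filled symbols to the right of 0, and both Sod2 results have symbols on either side of 0.

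The 4 genes did not move as a block across libraries. Over the 24 libraries, which share their library and group structure, Pearson's r of log2 CPM was 0.88 between Hmox1 and Sod2, 0.63 between Hmox1 and Cat, 0.50 between Sod2 and Cat, 0.43 between Sod1 and Cat, 0.083 between Hmox1 and Sod1 and 0.040 between Sod1 and Sod2. Hmox1 and Sod2 are the genes called lower with time under all 4 treatments. Among 10709 identifiers with a mean of at least 5 CPM, the one whose pattern was most like that of Hmox1 was ENSRNOG00000020937 (r = 0.93 over 24 libraries). Its log2 change with induction at 24 h was 0.011 and was not called (adjusted p = 0.81). For Sod1 it was ENSRNOG00000003147 (r = 0.94), which was 0.49 higher on the log2 scale with induction at 24 h (adjusted p = 8.1e-15). For Sod2 it was ENSRNOG00000028415 (r = 0.96), 0.11 lower (log2 change -0.11, adjusted p = 0.0047), and for Cat ENSRNOG00000002271 (r = 0.90), 0.21 higher (adjusted p = 1.1e-05). These 4 identifiers were picked for likeness over the same 24 libraries, so their induction changes lend the genes no separate support. An r above 0.8 was reached by 87 identifiers for Hmox1, 29 for Sod1, 226 for Sod2 and 28 for Cat. The wider antioxidant gene lists could not be read, since the identifiers are not paired with symbols.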

How the data were processed

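The authors deposited raw read counts per Ensembl gene identifier, 1 column per library, without normalization. Libraries were made from poly(A) RNA (NEBNext Ultra II), per the labels' protocols, and the submitters' processing notes name HISAT2 and HTSeq with no version. For the build, annotation and strand setting the entry is not given in the sources used here. The counts may therefore mix a gene with overlapping or antisense genes or close copies.

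From these counts, edgeR 4.0.16 in R 4.3.3 kept identifiers with filterByExpr (minimum count 10), scaled by TMM and fitted 1 quasi-likelihood model to 24 libraries and 8 groups. P-values were adjusted by Benjamini-Hochberg over 13760 identifiers, with calls below 0.05. Where groups are said not to overlap, the share of all identifiers that separate likewise was not counted. Standard errors are the absolute log2 change divided by the root of F, and 95% intervals use them. Group tests measure the spread between libraries, which may be technical, as nothing says that replicates were separate cultures. Replicates differed by more than sampling noise, with chi-square over degrees of freedom from 3.52 to 18.5. Same-numbered libraries deviated together (every r above 0.1) in 1 of 28 group pairs, uninduced at 4 h and 24 h, where the lowest r was 0.144. No block was used there, and it changed no call of that comparison. The fit was run on counts simulated from its own means and spread, in which few identifiers were changed. That run does not cover comparisons such as induction at 24 h, where most identifiers were called.

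The 4 genes and all lists were chosen with earlier results of these data known. Named genes are the 4 members and, by rule, the identifier with the highest r for each. Intervals and floors cover counting error or library spread only. The motifs and 2 comparisons were added after values had been seen. DESeq2 1.42.0 was an alternative, as were other scalings, filters, fits, left-out libraries and time labels.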

Additional observations from a re-analysis of the deposited data

Results flagged for a closer look

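Some effects differed between the times by a direct test, edgeR's quasi-likelihood test of the difference. For the induction effect 3 of 4 genes were called, where 50.3% of all identifiers were, and for the KIRA9 effect 1 of 4, where 49.7% were, so these counts do not set the genes apart. The induction effect was more positive at 24 h than at 4 h for Sod1 (0.1637 on the log2 scale, adjusted p = 0.0018). Without the 6 libraries that stood apart, which leaves 1 induced vehicle library at 24 h, it was 0.18. For Cat it was more positive by 0.3566 (adjusted p = 0.00094), a call that ended without the 6 libraries (0.23, adjusted p = 0.051). For Sod2 it was more negative (-0.1389, adjusted p = 0.0055), a call that ended without the 6 libraries (-0.125, adjusted p = 0.11) and with library totals (0.000676, adjusted p = 0.99). The KIRA9 effect on Cat, measured against induced vehicle, differed by -0.3568 (adjusted p = 0.00095), or -0.25 without the 6 libraries. Measured against uninduced cells, the KIRA9 difference in Cat changed by -0.00015 and was not called. The difference between compound-treated and uninduced cells in Sod1 grew by 0.2172 with PAIR1 (adjusted p = 0.00044), where 16.1% of identifiers were called, and by 0.2282 with KIRA9 (adjusted p = 0.00046), where 10.9% were.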

How the results depend on the processing

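Of 792 log2 changes of the 4 genes recomputed under other settings, 739 kept their call, 16 lost it, 20 gained one and 17 changed sign with a call in at least 1 fit. Another 27 changed sign with no call in either fit and are among the 739. With 1 library left out, 655 of 672 kept their call, 11 lost it and 6 gained one. DESeq2 size factors and no filter on low counts changed 0 calls. The replicate block changed 1 call, Cat with PAIR1 from 4 h to 24 h (-0.15, adjusted p = 0.045), and no other. Same-numbered libraries gave 84 correlations from -0.304 to 0.296, and 29 of 84 correlated best with their own number. The cause of the changes below was not tested.

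With times from the conflicting characteristic, induction at 4 h called 2 genes (Hmox1 -0.43, Sod2 -0.20), where 63.2% of all identifiers were called under that label. PAIR1 against induced vehicle called 3 at 4 h (Sod2 0.26) and 2 at 24 h (Sod2 -0.19), and KIRA9 3 (Sod2 0.22) and 2 (Sod2 -0.23), beside 63.5, 33.8, 65.0 and 30.7% of identifiers. Sod2 was 0.20 for induction at 24 h, and induced vehicle cells over time gave 0.47 for Hmox1 and 0.27 for Sod2. Between times, Sod2 was 0.40 for the induction effect, -0.46 for the PAIR1 effect (2 genes called, 60.7% of identifiers) and -0.45 for the KIRA9 effect (3 called, 57.3%).

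With library totals Sod2 was 0.066 for induction at 24 h, -0.034 for PAIR1 (0 genes called) and -0.10 for KIRA9 (4 called) against induced vehicle, where Sod1 was -0.11. The Sod2 induction effect between times was 0.000676, 4 genes were called over time in induced vehicle cells and 1 for the PAIR1 effect.

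At an adjusted p below 0.01, KIRA9 against uninduced cells called 0 genes at 4 h and 1 at 24 h, and PAIR1 against induced vehicle 0 at 24 h. DESeq2 also gave 0 there, and so did fits of only the groups compared, which gave 1 for KIRA9 against uninduced cells at 24 h. Without the 6 libraries that stood apart, KIRA9 against uninduced cells called 0 at 4 h and 1 at 24 h, induction 1 at 24 h, PAIR1 against induced vehicle 0 at 24 h and the induction effect between times 1. With 1 library left out, the counts ran from 0 to 1 for KIRA9 against uninduced at 4 h, for both compounds against induced vehicle at 24 h and for the PAIR1 effect, and from 1 to 2 for KIRA9 against uninduced at 24 h and for the KIRA9 effect (Sod2 0.11, adjusted p = 0.022, without KIRA9 replicate 3 at 4 h). With 311 to 688 counts, Hmox1 has the widest intervals of the 4 genes.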
